A study of Mus musculus with 8 samples.

Results

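The 8 genes Ihh, Ptch1, Hhip, Smo, Sufu, Gli1, Gli2 and Gli3, the core of the Hedgehog pathway, were chosen by symbol from a deposited table of 49671 genes and followed through all 8 of its RNA-seq libraries. Of these, 6 could be tested. In the CD1 mice, 4 of the 6 (Sufu, Gli1, Gli2 and Gli3) were higher in the basal than in the luminal gate, as were 24.2% of all genes tested. In the DNp63 mice the 4 higher in the basal gate were Ptch1, Sufu, Gli1 and Gli3, beside 24.9% of all genes. Gli1 could be tested only because of its values in the basal libraries, and without it each count was 3 of 5. None of the 6 passed between DNp63 and CD1 cells of the same gate, where 4.43% of all genes passed in the luminal and 0.716% in the basal gate. The gate difference itself was not called as unlike between the mice for any of the 6, Ptch1 and Gli2 included. Of all genes 0.343% were called in that test. The ligand Ihh had between 0 and 2 reads in each library.

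Hedgehog ligands bind the receptor Patched1 (Ptch1), which without ligand keeps the membrane protein Smoothened (Smo) inactive. Active Smo gathers in the primary cilium, releases the Gli transcription factors from Sufu and changes the balance between their full-length activating and shortened repressing forms, and Gli1, Ptch1 and Hhip are themselves known targets of this output. In the mouse mammary gland, Gli3 repression of the pathway is known to be needed for bud formation in the embryo, and forced Hedgehog activity disturbs duct development.

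The cells came from mammary glands of female mice of mixed genetic backgrounds and were negative for CD45, CD31 and CD140a, markers of blood, endothelial and fibroblast cells. The luminal gate was CD24+ CD29low (40000 cells a library) and the basal gate CD24+ CD29high (5000 cells a library). CD1 mice carried no transgene that the labels name. DNp63 cells were the GFP+ cells of K8rtTA/TetOCre/Rosa26-DNp63-IRES-GFP mice, in which the keratin 8 promoter drives a doxycycline-dependent activator of Cre, and Cre switches on ΔNp63 and GFP. Each of the 4 groups (CD1 luminal, DNp63 luminal, CD1 basal and DNp63 basal) had 2 libraries. The sources used here do not give age or the doxycycline schedule. Strain, doxycycline and the GFP gate go with the transgene and cannot be told apart from it. The keratin 8 promoter is a luminal one, so GFP+ cells in the basal gate are a labelled fraction of that gate. Whether the libraries of a group are from different animals is not stated in the labels, so p-values measure only the spread between these libraries, which may be technical.

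Values are reads per gene scaled by the authors to 20000000 per library, here called scaled reads. The whole reads behind them were recovered and came to 4136979 to 7206703 per library, which makes 1 read worth 2.78 to 4.83 scaled reads. Of all genes, 16900 reached 40 scaled reads in at least 2 libraries and were tested, 6 of the 8 Hedgehog genes among them (Ihh and Hhip did not). Trp63, the gene that encodes ΔNp63, was at 45 to 61 in CD1 luminal and 1297 to 1460 in DNp63 luminal libraries. Xist, the RNA of the inactive X chromosome, was at 55545 to 111346 in 6 libraries but at 36 in the second DNp63 luminal and 141 in the second DNp63 basal library, all from mice labelled female. The Y chromosome genes Ddx3y, Eif2s3y, Kdm5d and Uty were at 0 to 4 in all 8 libraries. The cause of the low Xist values was not tested. The 2 libraries low in Xist therefore stand apart, and many, though not all, results that rest on them are given with and without them. Without them each DNp63 group is 1 library, which is assumed to vary like the CD1 groups, so those p-values rest on the spread of the CD1 libraries alone. Summed over 8 basal epithelial markers the basal-gate libraries had 193519 to 214394 and the luminal-gate libraries 1737 to 4159, so the basal markers matched the labels of the gates. Summed over 12 luminal epithelial markers the luminal-gate libraries had 249547 to 282724, the CD1 basal libraries 37456 to 42663 and the DNp63 basal libraries 17054 to 19203. Basal-gate libraries also held RNA of cells the sort was to remove or lacks a marker for: 12 endothelial markers summed to 47953 to 68867 there against 2034 to 2518 in the luminal gate.

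Sufu and Gli3 were called higher in the basal gate of both CD1 and DNp63 mice, and Ptch1 in that of DNp63 mice only. The promoter sequences of these 3 genes are shown here so that their base composition can be seen. Each is the RefSeq GRCm38.p6 window from 250 bases before to 50 after the gene's start, 5′ to 3′ on the gene's strand, with GGGCGG or its reverse complement CCGCCC, the core of the GC box, in capitals. Ptch1 (chr13:63565686-63565985, minus strand) and Gli3 (chr13:15463473-15463772, plus strand) start at RefSeq positions inside the span that GENCODE gives the gene; Sufu is at chr19:46396646-46396945, plus strand.
Ptch1: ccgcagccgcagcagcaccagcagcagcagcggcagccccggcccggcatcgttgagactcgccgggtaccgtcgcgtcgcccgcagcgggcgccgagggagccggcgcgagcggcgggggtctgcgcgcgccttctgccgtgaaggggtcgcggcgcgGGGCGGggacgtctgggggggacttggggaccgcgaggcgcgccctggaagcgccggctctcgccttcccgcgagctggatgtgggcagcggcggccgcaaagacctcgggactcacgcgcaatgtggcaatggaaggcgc
Sufu: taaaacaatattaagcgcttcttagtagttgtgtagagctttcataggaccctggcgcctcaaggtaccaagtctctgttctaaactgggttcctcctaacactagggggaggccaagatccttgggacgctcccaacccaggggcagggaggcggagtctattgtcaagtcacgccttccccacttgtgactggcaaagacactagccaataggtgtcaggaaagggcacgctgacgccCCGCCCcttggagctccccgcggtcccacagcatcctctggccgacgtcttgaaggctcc
Gli3: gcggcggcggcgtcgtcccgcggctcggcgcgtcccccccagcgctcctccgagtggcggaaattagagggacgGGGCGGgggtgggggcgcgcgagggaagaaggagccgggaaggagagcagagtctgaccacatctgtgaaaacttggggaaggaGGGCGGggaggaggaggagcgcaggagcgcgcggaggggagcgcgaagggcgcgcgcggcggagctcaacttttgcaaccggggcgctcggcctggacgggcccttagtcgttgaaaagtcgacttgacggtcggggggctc

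The share of G or C in these windows was 76.3% for Ptch1, 71.0% for Gli3 and 56.3% for Sufu, against a median of 52.7% over 32817 RefSeq windows. Windows were found for 7 of the 8 genes, all but Gli1. GGGCGG occurred on either strand in 6 of the 7 (all but Smo) and in 35.6% of all windows. The Gli site GACCACCCA was in none of the 7 and in 0.253% of all windows, on either strand. Its shorter core CCACCCA, which GACCACCCA holds, was likewise in none of the 7, and in 9.31% of all windows. A match is a description of these letters and not a site of binding, and its lack says nothing of the factor.

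Ihh encodes Indian hedgehog, one of 3 Hedgehog ligands (ENSMUSG00000006538; GRCm38 chromosome 1, 74945315 to 74951672, minus strand). It was at 4 and 0 scaled reads in CD1 luminal, 10 and 8 in CD1 basal and 0 in all 4 DNp63 libraries. In reads this was 1 in the CD1 luminal group and 4 in the CD1 basal group, a ratio per depth of 4.71 with an exact 95% interval of 0.466 to 231.9. A count of 0 in a DNp63 group allows up to 3 reads, or 4.87 scaled reads in DNp63 luminal and 6.75 in DNp63 basal. No difference was detectable at this depth. These intervals and limits cover counting error only. The other ligands were low as well. Shh had at most 5 scaled reads in any library, and Dhh had 8 to 15 in the luminal gate and 37 to 112 in the basal gate. Dhh shares 12.4% of its exon bases with Rhebl1 on the same strand and 25.2% with an antisense gene. Reads from the shared bases may not be told apart from those of these genes.

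Ptch1 encodes the receptor that holds Smo inactive and takes up ligand (ENSMUSG00000021466; chromosome 13, 63508328 to 63573598, minus strand). It was at 756 and 734 scaled reads in the CD1 luminal pair (745.0 ± 15.6, SD, n = 2), 492 and 474 in the DNp63 luminal pair (483.0 ± 12.7), 1095 and 983 in the CD1 basal pair (1039.0 ± 79.2) and 1417 and 996 in the DNp63 basal pair (1206.5 ± 297.7). The 4 luminal libraries were below all 4 basal ones, the DNp63 luminal pair was lowest, and the basal groups overlapped. In the DNp63 mice Ptch1 was higher in the basal gate by 1.31 ± 0.18 on the log2 scale (SE; adjusted p = 0.00042), and by 1.53 without both second DNp63 libraries (adjusted p = 0.00704). In the CD1 mice the difference was 0.46 ± 0.18 (adjusted p = 0.0645) and did not pass the test at 0.05. Without the first or the second DNp63 basal library, which are outside that contrast but enter the shared spread its adjusted p was 0.0362 or 0.0345.

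Between DNp63 luminal and CD1 luminal cells the log2 difference of Ptch1 was -0.68 ± 0.18 (95% interval -1.08 to -0.27), with adjusted p = 0.0772, so it was not called. Its libraries did not overlap between the 2 groups, as was so for 18.0% of tested genes in that direction. Between the basal groups the difference was 0.18 ± 0.18 (adjusted p = 0.795). The difference of these differences, the interaction, was 0.85 ± 0.25 with adjusted p = 0.226.

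Hhip encodes a membrane protein that binds and sequesters the ligands (ENSMUSG00000064325; chromosome 8, 79965851 to 80058006, minus strand). It was at 4 and 0 scaled reads in the CD1 luminal pair (2.0 ± 2.83), 6 and 8 in the DNp63 luminal pair (7.0 ± 1.41), 33 and 12 in the CD1 basal pair (22.5 ± 14.8) and 38 and 30 in the DNp63 basal pair (34.0 ± 5.66). These were 1 to 15 reads per group, below the filter. By reads per depth the basal to luminal ratio was 11.8 in CD1 mice (exact 95% interval 1.67 to 510.8, from 10 reads against 1) and 5.2 in DNp63 mice (1.66 to 21.5, from 15 against 4). Both intervals pool the reads of a group and cover counting error only, not the spread between libraries. All 4 basal libraries were above all 4 luminal ones.

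Smo encodes the membrane protein that passes the signal inward (ENSMUSG00000001761; chromosome 6, 29735503 to 29761365, plus strand). It was at 1756 and 1530 scaled reads in the CD1 luminal pair (1643.0 ± 159.8), 2312 and 1699 in the DNp63 luminal pair (2005.5 ± 433.5), 1346 and 1745 in the CD1 basal pair (1545.5 ± 282.1) and 1771 and 1910 in the DNp63 basal pair (1840.5 ± 98.3). The gates overlapped in both mice and no comparison was called. The log2 difference of basal from luminal was -0.11 ± 0.19 in CD1 mice (adjusted p = 0.676, 95% interval -0.55 to 0.33) and -0.08 ± 0.19 in DNp63 mice (adjusted p = 0.765, 95% interval -0.52 to 0.36). Smo thus stood apart from the other tested genes in level pattern, and its Pearson correlation with each of them over the 8 libraries was -0.34 to 0.06, given as a description.

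Sufu encodes the cytoplasmic protein that holds Gli factors back (ENSMUSG00000025231; chromosome 19, 46396896 to 46488804, plus strand). It was at 490 and 478 scaled reads in the CD1 luminal pair (484.0 ± 8.49), 519 and 482 in the DNp63 luminal pair (500.5 ± 26.2), 1021 and 955 in the CD1 basal pair (988.0 ± 46.7) and 949 and 972 in the DNp63 basal pair (960.5 ± 16.3). The gates were far apart and the mice overlapped within each gate. Sufu was higher in the basal gate by 1.00 ± 0.14 in CD1 mice and 0.96 ± 0.14 in DNp63 mice on the log2 scale (adjusted p = 0.000544 and 0.000604). Without both second DNp63 libraries the DNp63 value was 0.88 (adjusted p = 0.0436). Between mice the 95% interval of its log2 difference was -0.33 to 0.30 in the luminal gate and -0.37 to 0.26 in the basal gate.

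**Figure D1:**
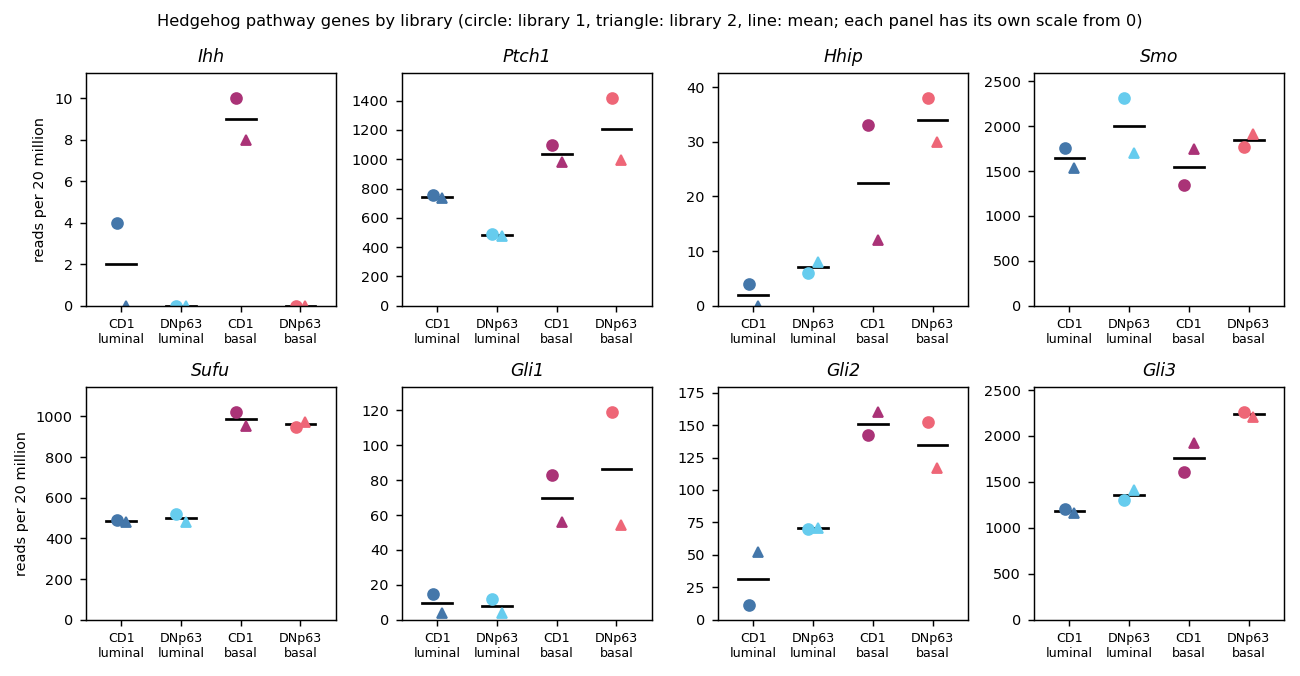
Scaled reads of the 8 Hedgehog genes in each of the 8 libraries, each panel with its own linear axis from 0; circles are the first and triangles the second library of a group, lines are group means, and groups are CD1 luminal, DNp63 luminal, CD1 basal and DNp63 basal. Ptch1, Hhip, Sufu, Gli1, Gli2 and Gli3 were higher in every basal than in every luminal library, while Ihh and Smo overlapped. Hhip was below the filter, and Gli1 passed it only through the basal libraries. The share of all genes that separate in this way was not counted.

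Gli1 encodes an activator that is itself a direct target of the pathway (ENSMUSG00000025407; chromosome 10, 127329882 to 127341974, minus strand). It was at 15 and 4 scaled reads in the CD1 luminal pair (9.5 ± 7.78), 12 and 4 in the DNp63 luminal pair (8.0 ± 5.66), 83 and 56 in the CD1 basal pair (69.5 ± 19.1) and 119 and 54 in the DNp63 basal pair (86.5 ± 46.0). In reads these were 5 in each luminal group, 32 in CD1 basal and 39 in DNp63 basal. It passed the low-value filter only through the basal libraries. The basal to luminal ratio by reads was 7.53 in CD1 mice (exact 95% interval 2.91 to 24.8) and 10.8 in DNp63 mice (4.26 to 35.2), for counting error only. The log2 difference, which the added constant of 8 shrinks, was 2.2 ± 0.52 in CD1 and 2.53 ± 0.52 in DNp63 mice (adjusted p = 0.00849 and 0.00387). In CD1 mice it was not called without the first CD1 basal library (adjusted p = 0.0554). Without both second DNp63 libraries the DNp63 value was 2.67 (adjusted p = 0.0366). Gli1 exons share 62 bases (1.2%) with Arhgap9 and 265 bases (5.3%) with Gm47200 on the other strand, and the sources used here do not give the strand setting of the counting.

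Gli2 encodes the factor known as the main activator in many tissues (ENSMUSG00000048402; chromosome 1, 118834132 to 119053619, minus strand). It was at 11 and 52 scaled reads in the CD1 luminal pair (31.5 ± 29.0), 70 and 71 in the DNp63 luminal pair (70.5 ± 0.707), 142 and 160 in the CD1 basal pair (151.0 ± 12.7) and 152 and 117 in the DNp63 basal pair (134.5 ± 24.7). The basal libraries were above the luminal ones, and the CD1 luminal pair differed most within a group. In CD1 mice it was higher in the basal gate by 2.23 ± 0.50 on the log2 scale (adjusted p = 0.00643). In DNp63 mice the difference was 0.88 ± 0.50 (adjusted p = 0.173). It was called without the first CD1 luminal library (adjusted p = 0.0241), without the second (0.0294) or with the 2 DNp63 groups alone (0.0376). Between the luminal groups Gli2 was 1.17 ± 0.50 higher in DNp63 (adjusted p = 0.272). This value rested on the CD1 luminal pair: without the second CD1 luminal library it was 2.00 (adjusted p = 0.0239). Its interaction was -1.35 ± 0.70 (adjusted p = 0.575).

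Gli3 encodes the factor known best in its repressor form (ENSMUSG00000021318; chromosome 13, 15463235 to 15730026, plus strand). It was at 1210 and 1156 scaled reads in the CD1 luminal pair (1183.0 ± 38.2), 1299 and 1409 in the DNp63 luminal pair (1354.0 ± 77.8), 1607 and 1921 in the CD1 basal pair (1764.0 ± 222.0) and 2260 and 2210 in the DNp63 basal pair (2235.0 ± 35.4). No 2 groups overlapped. It was higher in the basal gate by 0.55 ± 0.14 in CD1 mice and 0.75 ± 0.14 in DNp63 mice (log2, adjusted p = 0.0105 and 0.00208). The CD1 call was lost without the second CD1 basal library (log2 difference 0.40, adjusted p = 0.0758). The DNp63 call was lost without both second DNp63 libraries (log2 difference 0.81, adjusted p = 0.0548). Between the basal groups the log2 difference was 0.33 ± 0.14 (adjusted p = 0.416).

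On a per-kilobase scale (mean scaled reads per kb of exon) Gli3 was the highest of the 3 Gli genes in every library and Smo the highest of all 8. In CD1 luminal cells Smo was at 292.3, Gli3 at 123.4, Sufu at 62.9, Ptch1 at 52.5, Gli2 at 4.59 and Gli1 at 1.90. In CD1 basal cells Smo was at 275.0, Gli3 at 184.0, Sufu at 128.5, Ptch1 at 73.2, Gli2 at 22.0 and Gli1 at 13.9. As a share of the summed per-kb level of the 3 Gli genes, Gli3 made 93.5% to 96.5% in CD1 luminal, 91.5% to 93.0% in DNp63 luminal, 81.8% to 85.3% in CD1 basal and 83.7% to 89.2% in DNp63 basal libraries. The Gli1 share was 0.507% to 2.3% over the luminal libraries and 4.19% to 8.46% over the basal libraries. Its luminal shares rest on 1 to 4 reads a library, and Gli1 passed the filter only through the basal libraries. These are RNA levels, and the deposited table does not tell full-length from repressor protein.

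**Figure D2:**
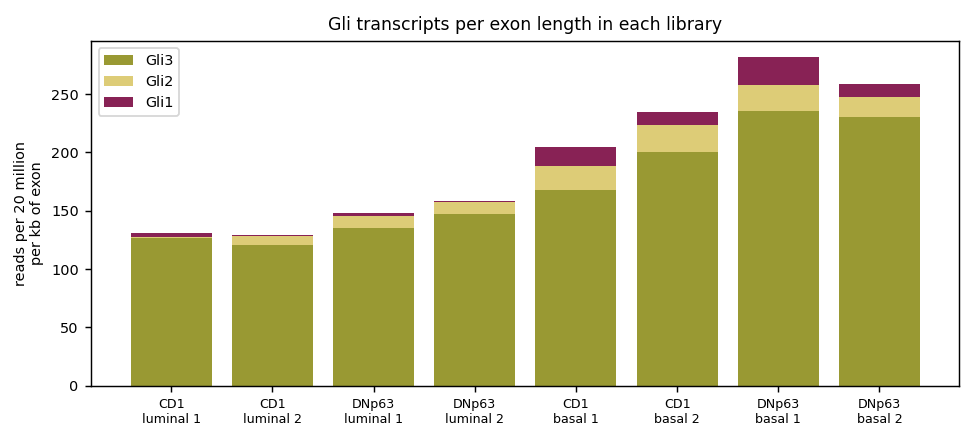
Bars stack the scaled reads per kb of exon of Gli3, Gli2 and Gli1 in each library on a linear axis from 0. Gli3 was the largest part of the bar in all 8 libraries, with 81.8% or more of the summed level.

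Counted over the tested Hedgehog genes, 4 of 6 were called higher in CD1 basal against CD1 luminal, where 24.2% of all 16900 genes were called higher. Without Gli1, which passed the filter only through the basal libraries, it was 3 of 5. For DNp63 basal against DNp63 luminal it was 4 of 6 higher (3 of 5 without Gli1, and 3 of 6 without both second DNp63 libraries), beside 24.9% of all genes. Against the CD1 luminal group, DNp63 basal cells had 5 of 6 higher (Ptch1, Sufu, Gli1, Gli2 and Gli3; 4 of 5 without Gli1), beside 25.1% of all genes. This last comparison shares its control libraries with the first one and its basal libraries with the second. In it Ptch1 was higher by 0.64 ± 0.18 on the log2 scale (adjusted p = 0.0172). Without the first DNp63 basal library neither Ptch1 (0.39, adjusted p = 0.121) nor Gli2 (1.87, adjusted p = 0.0607) was called, which left 3. Without both second DNp63 libraries Gli2 was not called (2.22, adjusted p = 0.0606), which left 4.

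For DNp63 against CD1 cells of the same gate the count was 0 of 6 in both gates, where limma called 4.43% of all genes in the luminal and 0.716% in the basal gate. In the luminal gate 2 of the 6 (Ptch1 and Gli2) and in the basal gate 1 (Gli3) had an unadjusted p under 0.05, and limma-voom on the recovered reads called 0 in each. For the interaction it was again 0 of 6, beside 0.343% of all genes, with 1 gene (Ptch1) under 0.05 unadjusted and 0 by voom. A p over the threshold does not show that levels were alike: the 95% interval of the luminal difference of Gli1 ran from -1.31 to 1.05 on the log2 scale.

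**Figure D3:**
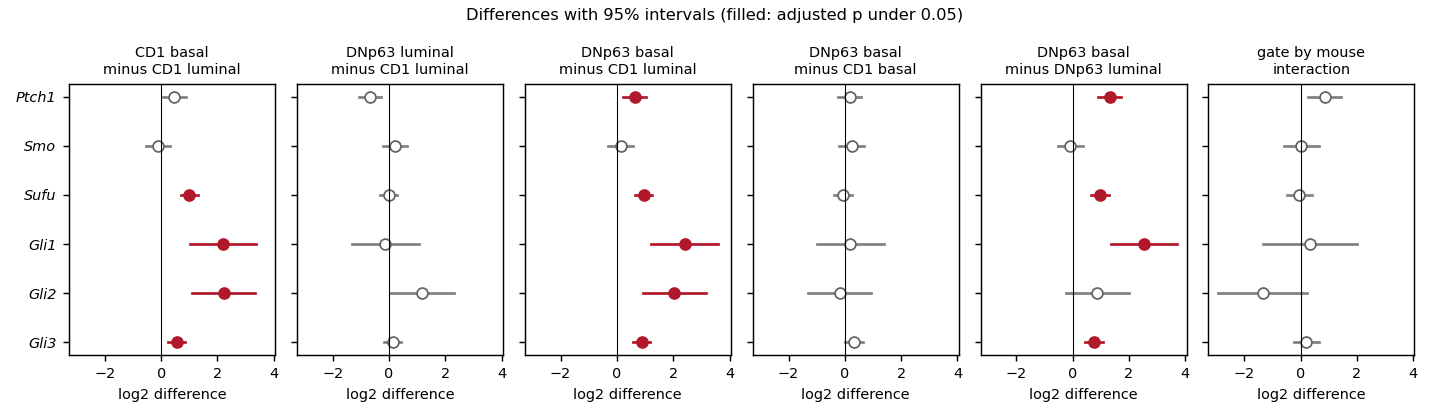
Log2 difference and 95% interval of the 6 tested Hedgehog genes in each comparison, from the limma fit; filled points passed an adjusted p of 0.05. Sufu lay near 1.00 in the basal against luminal comparisons and near 0 between mice.

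Markers of some other cell types moved with the gate. Of the 12 endothelial markers, 12 were called higher in the basal gate of CD1 mice than in their luminal gate (median log2 difference 5.19, beside -0.01 over all genes). For pericytes and vascular muscle it was 9 of 10, for adipocytes 10 of 10 and for Schwann cells 7 of 9 tested (1 lower). Summed pericyte markers were 4535 to 6336 in luminal and 19160 to 25677 in basal libraries. Notch3 alone gave 3757 to 5255 of the luminal sums and 2959 to 4416 of the basal ones. It made most of the luminal level and was not higher in the basal gate. Fibroblast markers summed to 9667 to 46721 in CD1 luminal, 10765 to 18224 in DNp63 luminal, 24548 to 55076 in CD1 basal and 78494 to 101862 in DNp63 basal libraries, so CD1 gates overlapped. Of 11 tested fibroblast markers, 1 was called higher in CD1 basal and 5 in DNp63 basal against the luminal gate of the same mice. Of 9 tested immune markers it was 2 and 3 (median 0.72 in both mice). Of all genes 24.2% and 24.9% were called higher in these comparisons. None of the defining markers of these cell types was at 0 in both libraries of any group. Hedgehog genes are expressed in stroma as well as epithelium, and the part of these cells in the gate differences of Sufu, Gli1, Gli2, Gli3 and Ptch1 was not tested. In bulk samples fewer cells of a type and less RNA per cell cannot be told apart.

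**Figure D4:**
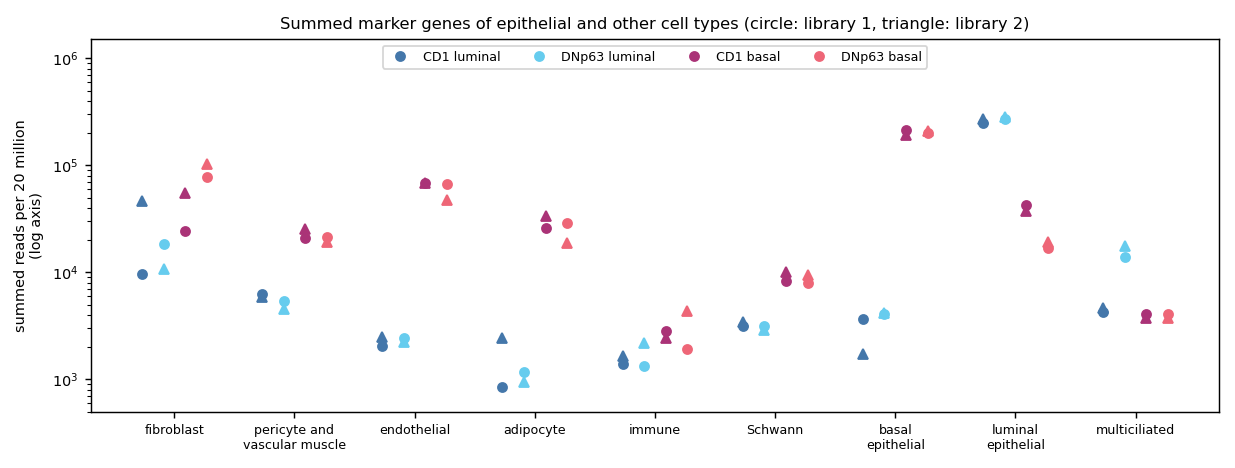
Summed scaled reads of the cell type marker lists in each library, on a log scale. Endothelial, pericyte and adipocyte sums were higher in all 4 basal than in all 4 luminal libraries, and multiciliated sums were highest in the 2 DNp63 luminal libraries.

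The genes whose log2 levels followed each member most closely over the 8 libraries (Pearson r, among genes with a mean of at least 100) are given as a description. For Sufu they were Bcl6b (0.998), Elk3 (0.998) and Tie1 (0.997), of which Tie1 is an endothelial receptor and on the marker list. For Gli3 they were Cyp2j6 (0.995), Syt11 (0.994) and Sardh (0.993), and for Gli1 Map4k2 (0.991), Ablim1 (0.985) and Fam219b (0.984). For Ptch1 they were Acap3 (0.982), Zfp691 (0.98) and Slc18a2 (0.979). For Gli2 they were Zfp595 (0.974), 2010111I01Rik (0.972) and Glb1l (0.971). Smo had lower best values: Isoc2a (0.932), Ypel1 (0.931) and Rab22a (0.927). The 8 libraries share 2 gates and 2 kinds of mice, so high values are common. Among the Hedgehog genes the highest were Sufu with Gli1 (0.95), Ptch1 with Gli1 (0.88) and Sufu with Gli3 (0.88).

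Of the other pathway genes, 14 act as ligands, in ligand release or as co-receptors. Of the 11 tested, 6 were called higher and 0 lower in CD1 basal against CD1 luminal (median log2 difference 1.81). Of all genes 24.2% were higher there. In DNp63 basal against DNp63 luminal it was 8 and 0 (median 2.25, beside -0.08 over all genes, of which 24.9% were higher). On the 9 that passed the filter in the luminal libraries alone these counts were 5 and 7. Gas1, a co-receptor that binds ligand with Ptch1, was at 118 and 430 scaled reads in the CD1 and 198 and 208 in the DNp63 luminal libraries, with 7614 and 10987 (CD1) and 6428 and 10844 (DNp63) in the basal ones. Its log2 difference between gates was 5.27 ± 0.50 in CD1 mice (adjusted p = 6.83e-05). Scube3, a secreted protein of the family that frees ligand, was higher by 4.65 ± 0.24 (adjusted p = 3.05e-06), and Gpc3, a glypican that competes for ligand, by 2.57 ± 0.79 (adjusted p = 0.027). The Gpc3 call was lost without the first (adjusted p = 0.0664) or the second (0.138) CD1 basal library.

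Boc, a co-receptor of the Ig and fibronectin family, was the single gene of that list called between DNp63 and CD1 luminal cells. It was at 2904 and 3616 scaled reads in the CD1 and 1344 and 1702 in the DNp63 luminal libraries, with 3594 and 4959 (CD1) and 4856 and 6411 (DNp63) in the basal ones. It fell by 1.15 ± 0.22 on the log2 scale in DNp63 luminal cells (adjusted p = 0.0213, 1 of 11 genes, beside 4.43% of all genes). The call was lost without the second CD1 luminal (adjusted p = 0.0752), the first DNp63 luminal (0.134) or the second DNp63 luminal library (0.0837), and without both second DNp63 libraries (0.157). Within DNp63 mice Boc was higher in the basal gate by 1.91 ± 0.22 (adjusted p = 0.000153), and in CD1 mice the difference was 0.37 ± 0.22 (adjusted p = 0.201). The interaction was 1.54 ± 0.31 (adjusted p = 0.0817) and not called.

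In CD1 basal against luminal cells 6 of 20 ciliary transduction genes were higher and 1 lower (median log2 difference 0.08), near the share of 24.2% of all genes that were higher. Those with the largest differences were higher: Gpr161, the ciliary receptor that raises cyclic AMP, by 2.81 ± 0.33, Kif7, the kinesin that sets up the cilium tip, by 2.01 ± 0.31 and Evc, a partner of Smo, by 1.79 ± 0.36 (adjusted p = 0.000214, 0.000941 and 0.0038). In DNp63 luminal against CD1 luminal cells 5 were higher and 0 lower (median 0.28, beside 0.01 over all genes, of which 4.43% were called). Kif3a, a subunit of the kinesin that carries cargo up the cilium, was at 483 and 515 scaled reads in the CD1 and 1344 and 1616 in the DNp63 luminal libraries, with 554 and 511 (CD1) and 540 and 542 (DNp63) in the basal ones. Kif3a was higher by 1.49 ± 0.15 (adjusted p = 0.00173), Dync2h1, the motor of the way back, by 1.48 ± 0.16 (adjusted p = 0.00203) and Efcab7, which tethers Evc, by 1.86 ± 0.34 (adjusted p = 0.0182). The other 2, Iqce (1.21, adjusted p = 0.0219) and Ift88 (0.90, adjusted p = 0.0303), were chosen after their values were seen. Without the first DNp63 luminal library Efcab7 was not called (adjusted p = 0.0704), nor without the second (0.173). Iqce was not called without the second CD1 luminal (adjusted p = 0.0626) or the second DNp63 luminal library (0.18). Ift88 was not called without any 1 of the CD1 luminal, DNp63 luminal or DNp63 basal libraries (adjusted p = 0.0547 to 0.263). Without both second DNp63 libraries none of the 5 was called, with log2 differences of 1.36 for Kif3a (adjusted p = 0.104) and 1.37 for Dync2h1 (adjusted p = 0.0746). Within the DNp63 mice 6 of the 20 were higher and 6 lower in the basal gate. Of all genes 24.9% were higher there, and 50.5% of all calls were higher. In the basal gate between mice 1 of the 20 was called, Arrb1 (0.86 ± 0.13, adjusted p = 0.0326), beside 0.716% of all genes. This call was lost without any 1 of the DNp63 luminal, CD1 basal or DNp63 basal libraries (adjusted p = 0.068 to 0.244). In the same comparison 7 of 12 luminal epithelial markers were called lower in DNp63 basal libraries (median -1.04), and their part in the Arrb1 value was not tested.

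Of 21 genes of Gli processing and turnover, 3 were called higher and 3 lower in CD1 basal against luminal cells (median -0.02), below the 24.2% of all genes that were called higher. Fbxw11, a ubiquitin ligase subunit of Gli processing, fell by 1.51 ± 0.13 (adjusted p = 3.53e-05), Ulk3, a kinase of Gli proteins, fell by 1.11 ± 0.27 (adjusted p = 0.0108), and Prkacb, a catalytic subunit of protein kinase A, rose by 0.99 ± 0.13 (adjusted p = 0.000492). Ulk3 was not called without the second CD1 luminal (adjusted p = 0.0641) or the second CD1 basal library (0.0711). In DNp63 luminal against CD1 luminal cells 1 of the 21 was called, beside 4.43% of all genes. This was Stk36, the kinase Fused, known in mice for motile cilia rather than for Gli control. Stk36 was at 196 and 152 scaled reads in the CD1 and 1177 and 1327 in the DNp63 luminal libraries, with 193 and 132 (CD1) and 182 and 213 (DNp63) in the basal ones (log2 difference in the luminal gate 2.74 ± 0.24, adjusted p = 0.000758). Its log2 difference was 2.66 without both second DNp63 libraries (adjusted p = 0.0725). In the same 2 DNp63 luminal libraries 14 multiciliated-cell markers summed to 13885 and 17513, against 3710 to 4695 in the other 6, and 7 of 11 tested were called higher (median 1.23). The marker Foxj1, the master regulator of motile cilia, named after its values were seen, was at 49 to 79 in CD1 luminal and 2637 to 3314 in DNp63 luminal libraries. The defining marker Mcidas was at 0 in both luminal groups. The defining marker Ccno was at 22 and 26 in CD1 luminal and 20 and 8 in DNp63 luminal libraries. Myb (1568 and 1993 against 1613 and 1538) and Trp73 (4 and 0 against 3 and 12) overlapped between these groups. Whether multiciliated cells were present, and their part in the Stk36, Kif3a and Dync2h1 values, was not tested.

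Of 20 reported Hedgehog targets 13 were tested. In CD1 basal against luminal cells 8 were higher and 2 lower (median 1.89, with 24.2% of all genes higher). In DNp63 mice 9 were higher and 2 lower (median 2.15, with 24.9% of all genes higher). On the 9 that passed in the luminal libraries alone the counts were 5 higher and 2 lower, and 6 and 2. Ccnd2, a cell cycle cyclin, was higher by 4.61 ± 0.23 in CD1 mice (adjusted p = 2.87e-06). Mycn, a transcription factor of growth, was at 0, 4, 3 and 4 scaled reads in the luminal libraries and at 89 to 155 in the basal ones, and passed the filter only through the basal libraries, so its fitted difference (3.56 ± 0.42, adjusted p = 0.000235) depends on the added constant and is no bound. These genes have other regulators, so the count is not a readout of the pathway. Between DNp63 and CD1 luminal cells 1 was higher and 1 lower, beside 4.43% of all genes called. Bcl2, an inhibitor of cell death, was at 1057 and 1034 in CD1 luminal and 628 and 439 in DNp63 luminal cells and fell by 1.04 ± 0.18 (adjusted p = 0.0159). Without the second DNp63 luminal library it was not called (-0.78, adjusted p = 0.115). Foxm1, a factor of cell division, was higher by 1.90 ± 0.39 (adjusted p = 0.0303), a call lost without any 1 of the CD1 luminal, DNp63 luminal or CD1 basal libraries (adjusted p = 0.0506 to 0.237). Without both second DNp63 libraries neither Bcl2 (adjusted p = 0.232) nor Foxm1 (0.248) was called. In the basal gate 0 of the 13 were called between mice, beside 0.716% of all genes.

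**Figure D5:**
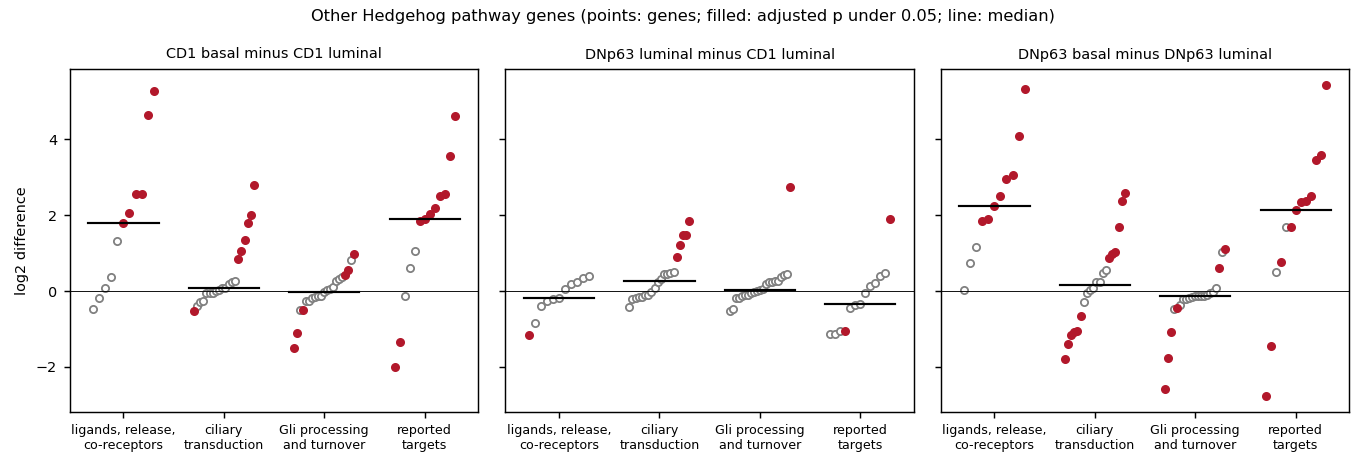
Log2 differences of the tested genes of the 4 other pathway lists in CD1 basal minus CD1 luminal, DNp63 luminal minus CD1 luminal and DNp63 basal minus DNp63 luminal; lines are list medians, and points that passed an adjusted p of 0.05 are filled. In DNp63 luminal against CD1 luminal cells the 5 ciliary transduction genes that passed were all higher.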

How the data were processed

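RNA-seq of 8 sorted mouse mammary libraries was re-analysed. Per the submitters' processing notes, the authors used STAR and HTSeq on GRCm38 (mm10). The sources used here give no version, annotation release or strand setting. The deposited values are score values: the authors scaled read counts to 20000000 per library and rounded them up, as the values show. Recovered whole reads (99.72% to 99.91% of values fell on whole reads within rounding) came to 4136979 to 7206703 per library, so 1 read is worth 2.78 to 4.83 and low genes are imprecise.

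Values were divided by TMM factors (trims 30% and 5%), 8 was added, and the log2 of the result entered a limma 3.58.1 fit (R 4.3.3) with 4 group means and an intensity trend over all 8 libraries. Genes with at least 40 in 2 libraries were tested, two-sided, with Benjamini-Hochberg adjustment over 16900 genes, and called at an adjusted p under 0.05. The code was tested on simulated data. A fold on this scale understates the change of low genes. Of 49671 identifiers, 49412 were found in GENCODE M21, which gave coordinates and exon lengths.

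Members, lists and tests were chosen with earlier results of these data known. The text names the 8 members, up to 3 called genes per list and comparison with the largest difference (every called gene where 2 or fewer), and the 3 genes most like each tested member; other genes are said to be chosen after their values were seen. A gene that this rule names is not reported here. Alternatives were other pseudocounts, filters, scalings, voom on recovered reads, fewer groups, a replicate block and left-out libraries.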

Additional observations from a re-analysis of the deposited data

Results flagged for a closer look

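The interaction term of the limma fit, the gate difference in the effect of the DNp63 mice, was called for 2 of the 64 other pathway genes tested. Of all genes 0.343% were called. For Kif3a the interaction was -1.48 ± 0.21 on the log2 scale (adjusted p = 0.0353): its DNp63 minus CD1 log2 difference was 1.49 in the luminal and 0.01 in the basal gate. For Stk36 it was -2.47 ± 0.34 (adjusted p = 0.032), from 2.74 in the luminal and 0.27 in the basal gate. Both were higher in both DNp63 luminal libraries than in the 6 others. Neither was called with no filter on low values (adjusted p = 0.0933 for both) or by voom on recovered reads (0.0685 for Kif3a and 0.0551 for Stk36). Neither was called without any 1 of the DNp63 luminal, CD1 basal or DNp63 basal libraries (adjusted p = 0.131 to 0.188 for Kif3a and 0.0849 to 0.184 for Stk36). Without both second DNp63 libraries the interactions were -1.36 (adjusted p = 0.608) for Kif3a and -2.5 (adjusted p = 0.581) for Stk36. The multiciliated-cell marker Foxj1, named after its values were seen, had an interaction of -6.36 ± 0.36 (adjusted p = 0.000592). Its DNp63 minus CD1 log2 difference was 5.34 in the luminal gate, with both DNp63 libraries above both CD1 libraries, and -1.02 in the basal gate (adjusted p = 0.149), with both DNp63 libraries below. No test was made of what sets these differences.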

How the results depend on the processing

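The depth, 2 libraries a group and 1 library of each DNp63 group that stands apart limit these values. Of the alternative values of member differences, 614 kept direction and side of the threshold, 8 gained a call, 6 lost one and 25 changed sign, all of differences that were not called. The cause was not tested. The changes of sign outside left-out libraries were Smo interaction -0.01 and Sufu 0.05 between luminal groups with no scaling factors, and Sufu interaction 0.02 with median-of-ratios factors. Over left-out libraries log2 differences ran as follows. Ptch1 between the basal groups ran from -0.07 to 0.43. Smo ran from -0.32 to 0.10 between the CD1 gates, -0.01 to 0.44 between the luminal groups, -0.37 to 0.20 between the DNp63 gates and -0.26 to 0.30 for the interaction. Sufu ran from -0.07 to 0.05 between the luminal groups and -0.13 to 0.06 for the interaction. Gli1 ran from -0.60 to 0.34 between the luminal groups, -0.31 to 0.72 between the basal groups and -0.18 to 0.84 for the interaction. The number of Hedgehog genes called ran from 0 to 1 between the luminal groups (1, Gli2, without the second CD1 luminal library) and from 3 to 5 for DNp63 basal against CD1 luminal. It was also 3 to 5 for the CD1 gates (3 without either CD1 basal library, 5 without either DNp63 basal library) and for the DNp63 gates (3 without both second DNp63 libraries, 5 without either CD1 luminal library). A filter at 100 left Gli1 untested, with 3, 4 and 3 called in CD1 gates, DNp63 basal against CD1 luminal and DNp63 gates.

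Over all genes, DNp63 luminal against CD1 luminal called 749, but 442 with no filter, 314 from these 2 groups alone, 255 or 142 without the first or second DNp63 luminal library and 35 without both second DNp63 libraries. DNp63 basal against CD1 basal called 121, but 45 with no filter, 50 by voom and 203 with a replicate block. Without 1 library it ran from 3 (without the first CD1 basal) through 10, 21 and 40 (without the first DNp63 basal, second DNp63 basal or second CD1 basal) and 71 (without the first DNp63 luminal) to 189 and 190 (without the first or second CD1 luminal). The interaction called 58, but 90 with a constant of 20, 10 with no filter, 22 by voom, 128 with a replicate block, 502 with a block within each mouse group, 163 or 95 without the first or second CD1 luminal library, 4 to 7 without any 1 other library and 0 without both second DNp63 libraries. Without those 2 libraries DNp63 basal against CD1 luminal called 4853 of 7981 and DNp63 basal against DNp63 luminal 3739 of 8323.

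The replicate numbers are not said to pair samples. Deviations of same-numbered libraries correlated at 0.341 between the CD1 gates, 0.267 between the DNp63 gates and -0.014 to 0.04 across mice. With a replicate block 5 Hedgehog genes in place of 4 were called in CD1 basal against luminal, as Ptch1 had an adjusted p of 0.0458, or 0.0297 with a block within each mouse group, an alternative chosen after seeing the data. Boc in the same comparison was called with either block (adjusted p = 0.0265 and 0.0187).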
